A study of Rattus norvegicus with 30 samples.

Results

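The response to traumatic brain injury (TBI) was compared between the perilesional cortex and the thalamus of the injured side (ipsilateral). The comparison used 20 of the 30 mRNA libraries of the series, namely every library that the labels assign to one of these brain areas. The comparison is the interaction of brain area and treatment, which asks for each gene whether the change from sham to TBI was the same in both areas. It was taken as the log2 fold change in the cortex minus that in the thalamus, so a positive value marks a more positive response in the cortex. Adult male Sprague-Dawley rats were anaesthetised with a mixture of pentobarbital and chloral hydrate, and all had a craniectomy over the left parietal lobe. In 5 rats (6 to 10) a lateral fluid-percussion injury (lateral FPI), a pressure pulse on the intact dura, was induced, whereas 5 sham-operated rats (1 to 5) had anaesthesia and surgery without the impact. Both areas were dissected from the same 10 rats at 3 months after the operation, so each of the 4 groups holds 5 libraries, 1 per rat.

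Lateral FPI damages the cortex under the impact directly, and the tissue around the lesion is known for neuronal loss and long-lasting gliosis. The thalamus lies away from the impact but exchanges fibres with the injured cortex, and it is known for delayed degeneration and inflammation in the nuclei that project there. The areas also differ before any injury, as thalamic relay neurons and cortical pyramidal neurons express different sets of genes. RNA was taken from whole tissue, in which fewer cells of a type and less RNA per cell cannot be told apart.

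The libraries held between 21992859 and 31799879 counted reads. The 10 most counted genes took 14.1 to 29.6% of the reads in the cortex and 6.32 to 10.5% in the thalamus, and the TMM scaling factors were 0.740 to 0.976 in sham cortex and 0.887 to 1.14 in TBI cortex. The labels name 1 sequencer for all libraries, whereas the study's methods give the thalamic libraries another instrument and read length. A difference in level between the areas therefore cannot be told apart from the sequencing, whereas the change from sham to TBI was measured within each area. The gene tables hold Ensembl identifiers without names, and 0 of 26404 could be paired with a symbol. Genes are therefore described by their levels, 4 are given by identifier, and the labelled tissues were not checked against marker genes.

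The response differed between cortex and thalamus in 78 of 17745 genes tested (0.44%; edgeR quasi-likelihood test, Benjamini-Hochberg adjusted p below 0.05). It was more positive in the cortex in 66 genes (0.372% of those tested) and more positive in the thalamus in 12 genes (0.0676%). The difference exceeded 2-fold in 60 of the 78 genes, with a median size of 1.46 on the log2 scale and a range of 0.48 to 4.71. At an unadjusted p below 0.05, 1678 genes differed. With the rat entered as a block, 49 genes passed the threshold, of which 43 were among the 78. The split between the areas moved with the scaling, as DESeq2's size factors within edgeR (RLE) gave 42 genes more positive in the cortex and 16 more positive in the thalamus. DESeq2 itself called 121 and 87 genes. All 78 genes kept the direction of their difference in both of these analyses. As the same libraries chose the genes, this was almost fixed in advance. Without rat 3, 4, 5, 7 or 9 the count of genes past the threshold was 43, 35, 44, 40 or 47, respectively.

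When each area was tested alone, 4436 of 17185 genes changed in the cortex (25.8%; 2437 up and 1999 down) and 934 of 16605 changed in the thalamus (5.62%; 626 up and 308 down). The larger number in the cortex was not seen in the joint fit of the 20 libraries, whose contrasts gave 2722 genes in the cortex and 2805 in the thalamus, whereas DESeq2 gave 4933 and 1950. The thalamic count also rested on single rats, being 0 without rat 3, 5, 7 or 8, 67 without rat 10, 468 without rat 4, 550 without rat 9 and 2421 without rat 6. Passing the threshold in one area alone was seldom accompanied by a measured difference between the areas. Of 3722 genes called in the cortex and not in the thalamus, 50 passed the test of the difference, and in 2648 the 95% interval of the difference lay within 2-fold in either direction. Of 221 genes called in the thalamus and not in the cortex, 8 passed the test of the difference and 124 had an interval within 2-fold. All 13 genes called in opposite directions passed the test of the difference, as did 5 of the 700 genes called in both areas in the same direction. Over all genes tested, the interval lay within 2-fold in 12997 (73.2%).

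**Figure D1:**
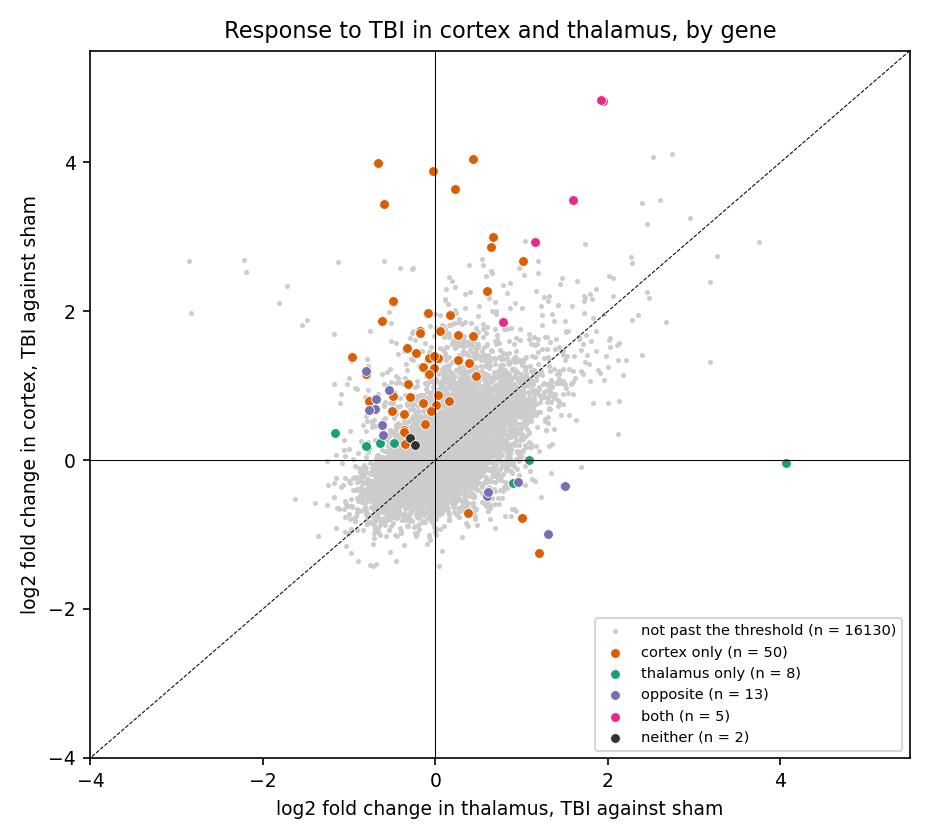
Each point is a gene, with its log2 fold change between TBI and sham in the thalamus on the horizontal axis and in the cortex on the vertical axis. Coloured points are the 78 genes past the threshold of the difference, grey points are the other 16130 genes tested in both areas (1 lies outside the axes), and the dashed line marks an equal response; most coloured points lie above the line, and the cortex-only genes spread over both sides of 0 on the thalamic axis.

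The largest group of the 78 genes responded in the cortex only, that is, 50 genes passed the threshold in the cortex alone and did not in the thalamus alone. Of these, 47 rose in the cortex, by a median of 1.37 on the log2 scale (2.59-fold; range 0.21 to 4.05). In the thalamus the same 47 genes had a median log2 fold change of -0.08 (range -0.97 to 1.02), with 30 values below 0. The 95% interval lay within 2-fold in 35 of them. In 12 of the 47 the adjusted p in the thalamus was below 0.1, so the border of this group depends on the threshold. The class of 50 held 33 genes without rat 2, 22 without rat 4, 30 without rat 6 and 29 without rat 9. It held 32 under RLE, 34 by the contrasts of the 20-library fit and 113 by DESeq2. It was not the largest class in every analysis, as thalamus only held 46 genes without rat 6, and both classes held 9 without rats 1, 3, 6 and 9. The median level of the 47 genes was 3.05 CPM (counts scaled by library size) in sham cortex and 7.04 CPM in TBI cortex, against 12.4 CPM in sham thalamus and 9.85 CPM in TBI thalamus. In sham-operated rats 44 of the 47 had a higher mean in the thalamus than in the cortex, and after TBI 28 had. In 17 of them the sham cortex held less than 1 CPM, so that the fold change rests on few reads. The remaining 3 genes of the cortex-only group fell in the cortex, by 0.71 to 1.25 on the log2 scale, and had thalamic log2 fold changes of 0.37 to 1.20 that did not pass the threshold. The thalamic 95% interval lay above 0 in each of the 3, and in 2 of them the thalamic adjusted p by edgeR was below 0.1.

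The greatest difference among all 78 genes, also by p-value, was that of ENSRNOG00000018505, a gene at a low level in sham cortex and abundant in the thalamus. In the cortex of sham-operated rats 1 to 5 it was measured at 0.427, 0.128, 0.109, 0.245 and 0.489 CPM, from 3 to 13 reads per library. In the cortex of TBI rats 6 to 10 it was measured at 4.57, 5.68, 3.71, 3.09 and 5.33 CPM, so that every TBI library lay above every sham library. The thalamic levels were 17.1, 25.5, 22.4, 17.7 and 23.3 CPM in sham rats and 18.2, 7.73, 10.9, 12.7 and 15.4 CPM in TBI rats, where rat 6 lay within the sham range and the other 4 TBI rats below it. The means were 0.280 ± 0.172 and 4.48 ± 1.08 CPM in sham and TBI cortex and 21.2 ± 3.65 and 13.0 ± 4.03 CPM in sham and TBI thalamus (SD, n = 5 each). The gene rose 15.9-fold in the cortex (log2 fold change 3.99, SE 0.31, edgeR adjusted p = 9.27e-07). Its thalamic log2 fold change was -0.67 (95% interval -1.10 to -0.23), which did not pass the threshold (edgeR adjusted p = 0.0671). In the joint fit of the 20 libraries the thalamic fall had an unadjusted edgeR p of 0.00417. The difference between the responses was 4.71 (SE 0.40, edgeR adjusted p = 1.26e-06), or 26.3-fold. After TBI the cortex remained below the thalamus in each rat, with a mean log2 difference of -1.49 ± 0.63 against -5.87 ± 0.80 in the sham rats (SD, n = 5 each).

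ENSRNOG00000029342 had the second greatest difference, and here the order of the areas turned. Its cortical levels were 0.481, 0.639, 0.400, 0.245 and 0.451 CPM in sham rats and 7.51, 4.72, 3.49, 3.70 and 4.86 CPM in TBI rats. The groups did not overlap in the cortex, where the sham libraries held 6 to 15 reads each. In the thalamus it was measured at 2.50, 3.76, 1.47, 2.88 and 4.87 CPM in sham rats and at 1.60, 0.644, 0.959, 3.92 and 2.92 CPM in TBI rats, and these groups overlapped. The cortical rise was 10.9-fold (log2 fold change 3.44, SE 0.27, edgeR adjusted p = 8.63e-07). The thalamic log2 fold change was -0.60 (95% interval -1.54 to 0.35, edgeR adjusted p = 0.436). The difference was 4.10 (SE 0.59, edgeR adjusted p = 0.00177). All 5 sham rats had less in the cortex than in the thalamus, whereas 4 of 5 TBI rats had more in the cortex, the exception being rat 9 with a log2 difference of -0.08.

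**Figure D2:**
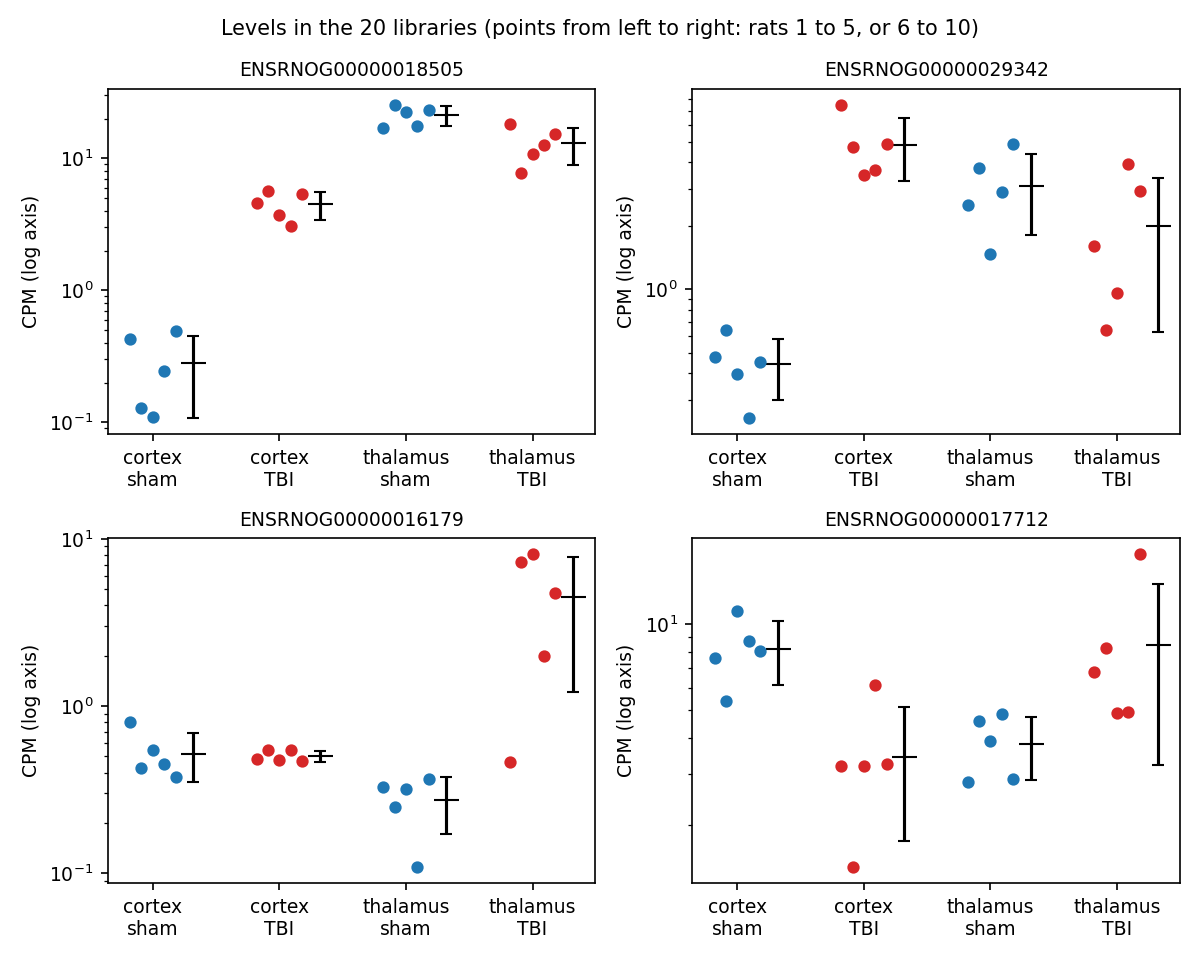
Levels of 4 genes in CPM (log axis) in each library, with sham libraries in blue, TBI libraries in red, and the mean ± SD of the 5 libraries in black beside them. The upper genes were raised in TBI cortex (means 4.48 and 4.86 CPM against 0.280 and 0.443 CPM in sham). The lower genes were higher in TBI than in sham thalamus in their means (edgeR estimates 16.8-fold and 2.29-fold), with rat 6 at 0.466 CPM in the lower left panel.

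In the opposite sense, the greatest difference was that of ENSRNOG00000016179, which responded in the thalamus only. It was measured at 0.376 to 0.801 CPM in sham cortex and 0.466 to 0.543 CPM in TBI cortex, and the log2 fold change there was -0.04 (95% interval -0.57 to 0.50). The thalamic levels were 0.327, 0.248, 0.319, 0.108 and 0.365 CPM in sham rats. In TBI rats 6 to 10 they were 0.466, 7.22, 8.11, 1.98 and 4.72 CPM. All TBI libraries thus lay above the sham libraries, but rat 6 only slightly so. The gene held 3 to 11 reads per library in sham thalamus and 10 to 16 in the cortex, so its fold changes rest on few reads. It met the minimum of 1 CPM for naming only through TBI thalamus, and was not tested under a minimum of 1 CPM in both areas. The rise in the thalamus was 16.8-fold (log2 fold change 4.07, SE 0.67, edgeR adjusted p = 0.0166), and the difference between the areas was -4.05 (SE 0.78, edgeR adjusted p = 0.0174). It no longer passed the threshold without rat 1, 2, 3, 4 or 7, with edgeR adjusted p-values up to 0.0691 and differences of -3.71 or beyond when any rat was left out.

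ENSRNOG00000017712 fell in the cortex, from 7.63, 5.41, 11.1, 8.71 and 8.08 CPM in sham rats to 3.21, 1.42, 3.19, 6.11 and 3.26 CPM in TBI rats (log2 fold change -1.25, SE 0.30, edgeR adjusted p = 0.00994). Rat 9 alone overlapped with the sham range. In the thalamus it was measured at 2.83, 4.58, 3.90, 4.87 and 2.88 CPM in sham rats and at 6.78, 8.23, 4.92, 4.95 and 17.5 CPM in TBI rats. The thalamic groups did not overlap, but the log2 fold change of 1.20 (95% interval 0.47 to 1.92) missed the threshold (edgeR adjusted p = 0.0538), so the gene counts as cortex only. In the joint fit of the 20 libraries the cortical fall had an unadjusted edgeR p of 0.00145 and the thalamic rise one of 0.00257. The difference was -2.40 (SE 0.48, edgeR adjusted p = 0.0219), and -1.96 without rat 10. It did not pass with the rat as a block (edgeR adjusted p = 0.0816), in 1 fit over all 30 libraries (edgeR adjusted p = 0.111) or without rat 1, 3, 4, 5 or 7. Nor did it pass in the block without rat 6 (edgeR adjusted p = 0.131) or without rats 1, 3, 6 and 9 together (edgeR adjusted p = 0.0915).

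For these 4 genes the cortex-minus-thalamus difference within each rat was also compared between the 5 TBI and 5 sham rats by a two-sided exact permutation test. The exact p was 0.00794 for ENSRNOG00000018505 and ENSRNOG00000029342, the smallest that 5 rats against 5 can give, and 0.0159 for the other two genes, with an adjusted p of 0.0159 over the 4 permutation tests. As the genes were chosen for the size of this difference, these p-values describe the rats and are not independent evidence. Among the 78 genes, the within-rat differences of TBI and sham rats did not overlap in 69, against 408 of all 17745 genes (2.3%), but the 78 were chosen on the same libraries and nothing is read from this count.

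**Figure D3:**
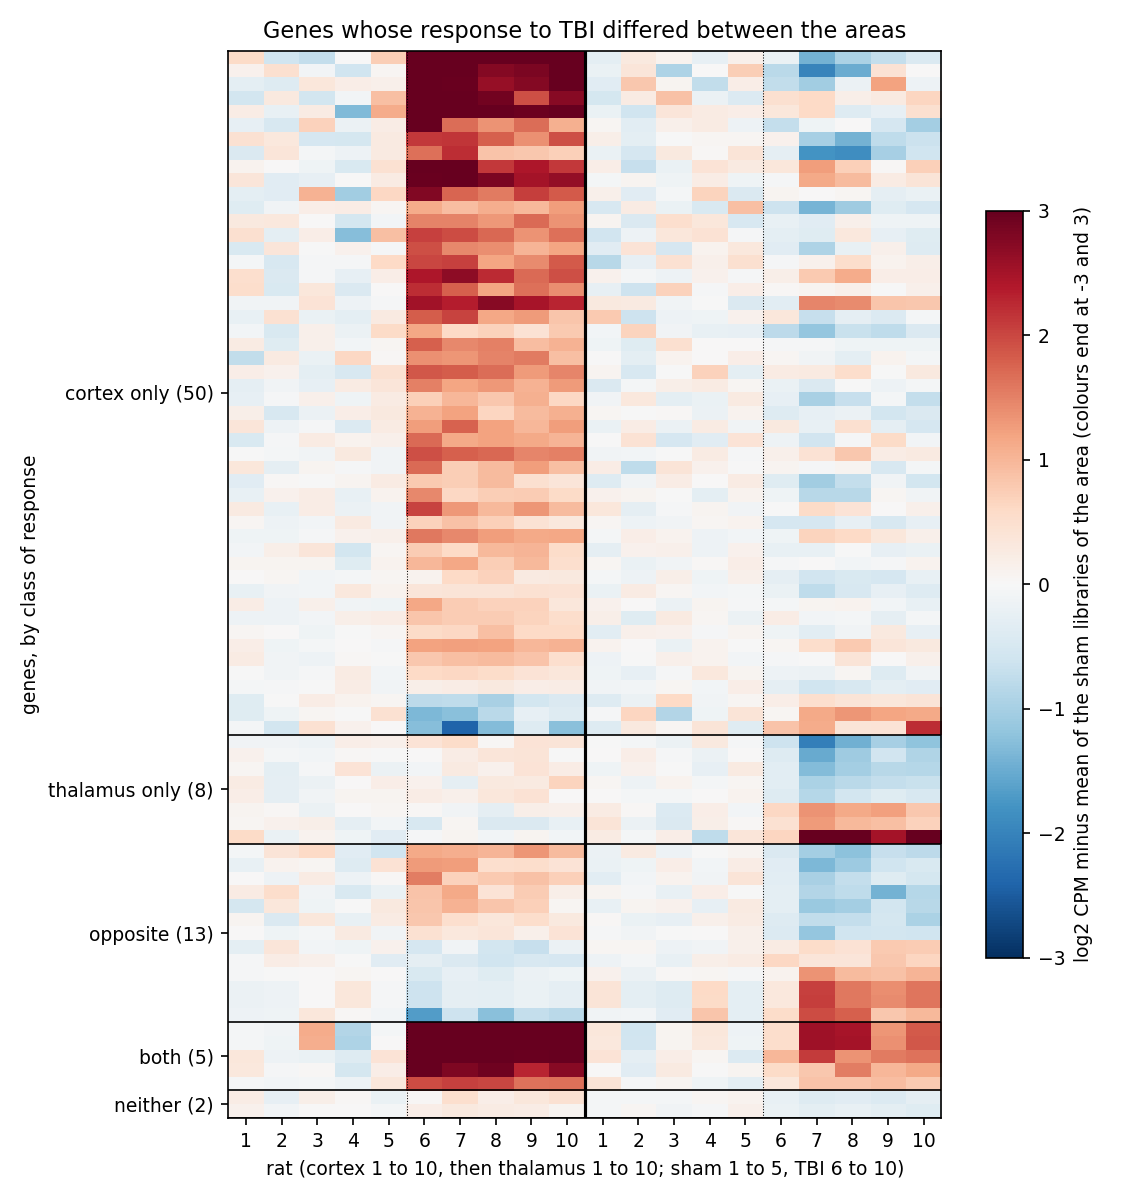
The 78 genes (rows, in 5 classes of response) in the 20 libraries (columns by rat, cortex to the left and thalamus to the right), coloured by log2 CPM minus the mean of the sham libraries of the same area. The 50 cortex-only genes are mostly red in TBI cortex and pale in TBI thalamus, the 13 opposite genes change colour between the areas, and in the thalamus the column of rat 6 is paler than those of rats 7 to 10.

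Of the 13 genes that changed in opposite directions, 7 rose in the cortex and fell in the thalamus. Their log2 fold changes were 0.33 to 1.20 in the cortex and -0.81 to -0.54 in the thalamus. All 7 were higher in the thalamus in sham rats, with a median of 26.9 CPM against 4.45 CPM in the cortex, and after TBI the medians were 16.2 and 6.23 CPM. The levels of the areas thus came closer from both sides, and 6 of the 7 were still higher in the thalamus. The other 6 genes fell in the cortex, by 0.29 to 0.99 on the log2 scale, and rose in the thalamus, by a median of 1.13. They were all higher in the cortex in sham rats (median 28.8 CPM against 6.07 CPM) and remained higher there after TBI (21.8 against 10.02 CPM). A pair of these 6 had counts within 1.01-fold of each other in every library, so the pair may share reads and stand for 1 gene. In the joint fit of the 20 libraries the cortical fall of 3 of the 6, this pair included, had an unadjusted p above 0.05. As the class needs a thalamic call, it was empty without rat 3, 5, 7, 8 or 10, and held 7 genes without rat 4, 8 without rat 9 and 16 without rat 6.

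Only the thalamus responded in 8 genes. Of these, 5 fell in the thalamus, with log2 fold changes of -1.17 to -0.48, and had cortical values of 0.17 to 0.36 whose intervals all lay within 2-fold. All 5 were higher in the thalamus than in the cortex both before and after TBI, with median thalamic levels of 42.5 CPM in sham and 21.9 CPM in TBI rats and median cortical levels of 12.0 and 14.1 CPM. The remaining 3 rose in the thalamus, by 0.90 to 4.07 on the log2 scale, including ENSRNOG00000016179, and had cortical log2 fold changes of -0.31 to 0.00. Each of the 3 was higher in the cortex in sham rats and higher in the thalamus after TBI. In 1 of the 5 and 1 of the 3 the cortical adjusted p by edgeR was between 0.05 and 0.1, with a sign opposite to that in the thalamus. This class of 8 was empty without rat 3, 5, 7 or 8, held 4, 3, 4 or 2 genes without rat 2, 4, 9 or 10, and held 46 without rat 6, 39 by DESeq2 and 15 by the 20-library contrasts.

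Another 5 genes rose in both areas but further in the cortex, by a median of 3.50 against 1.60 on the log2 scale. Their median level went from 2.98 to 87.8 CPM in the cortex and from 38.1 to 69.3 CPM in the thalamus. A pair of these genes had counts within 1.12-fold of each other in every library and may also share reads. This class of 5 was empty without rat 3, 5, 7 or 8, and held 3 genes without rat 1, 2 or 4, 2 without rat 10, 16 without rat 6 and 14 by DESeq2. The last 2 genes passed in neither area alone, with log2 fold changes of 0.20 in the cortex and -0.23 in the thalamus for one and of 0.30 and -0.29 for the other.

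**Figure D4:**
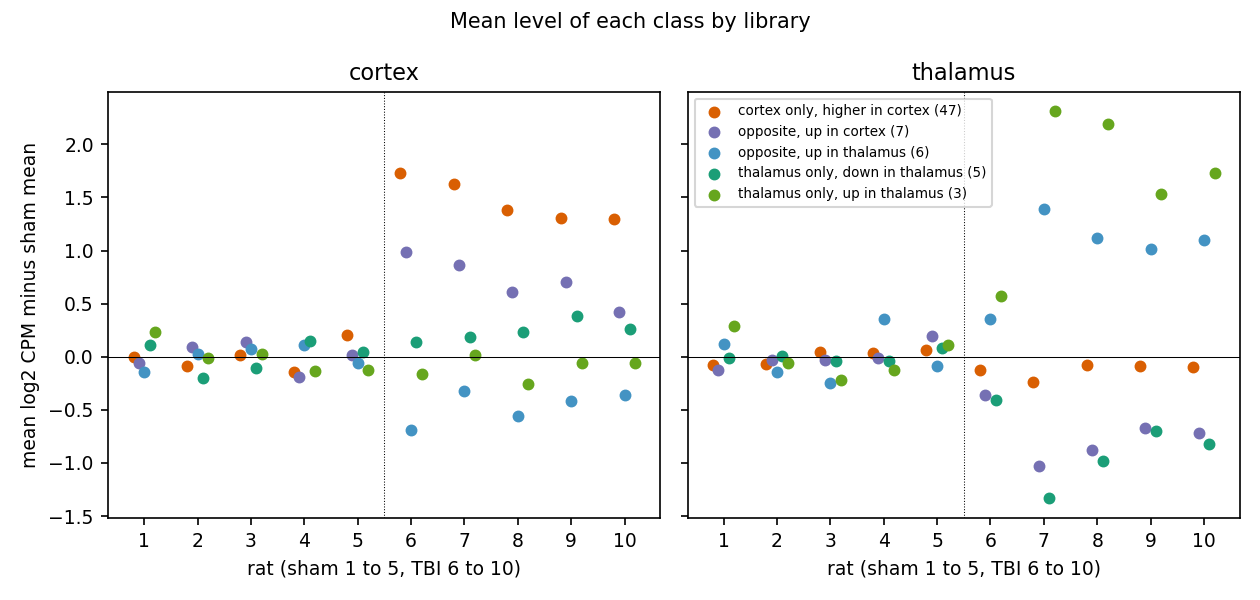
Mean log2 CPM over the genes of a class, relative to the sham mean of the same area, for each rat in the cortex and the thalamus. The mean of the 47 cortex-only genes stands above the sham libraries in all 5 TBI rats in the cortex and near 0 in the thalamus (-0.24 to -0.07). The thalamic log2 fold changes of the single genes ran from -0.97 to 1.02. For the classes with a thalamic response rat 6 lies between the sham libraries and the other TBI rats.

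TBI rat 6 had the weakest thalamic response in each class that changed in the thalamus. The mean of the 6 opposite genes that rose in the thalamus was 0.36 above sham in rat 6 and 1.02 to 1.39 above sham in rats 7 to 10. The mean of the 5 genes that fell in the thalamus only was at -0.41 in rat 6 and at -1.33 to -0.70 in the other TBI rats. In the cortex the same animal was not weak, as its 47 cortex-only genes had the highest mean of the TBI rats. Without rat 6, 110 genes passed the test of the difference (83 more positive in the cortex, 27 in the thalamus), and 64 of them were among the 78.

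In sham-operated rats most of the 78 genes were measured at a higher level in the thalamus, though for levels area and sequencing cannot be told apart. The thalamic mean exceeded the cortical mean in 63 of 78 (80.8%), compared with 51.2% of all genes tested. The median gap between the areas was 1.77 on the log2 scale in sham rats and 0.83 after TBI, whereas over all genes it was 0.61 and 0.55. The gap was smaller after TBI in 69 of the 78 genes (88.5%; all genes 61.2%). In 25 genes the order of the areas turned, from a higher thalamus to a higher cortex in 20 and the reverse in 5 (32.1%; all genes 9.34%, with 1200 and 457 in these directions). These are descriptions, since the same libraries chose the 78 genes and set the gap.

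**Figure D5:**
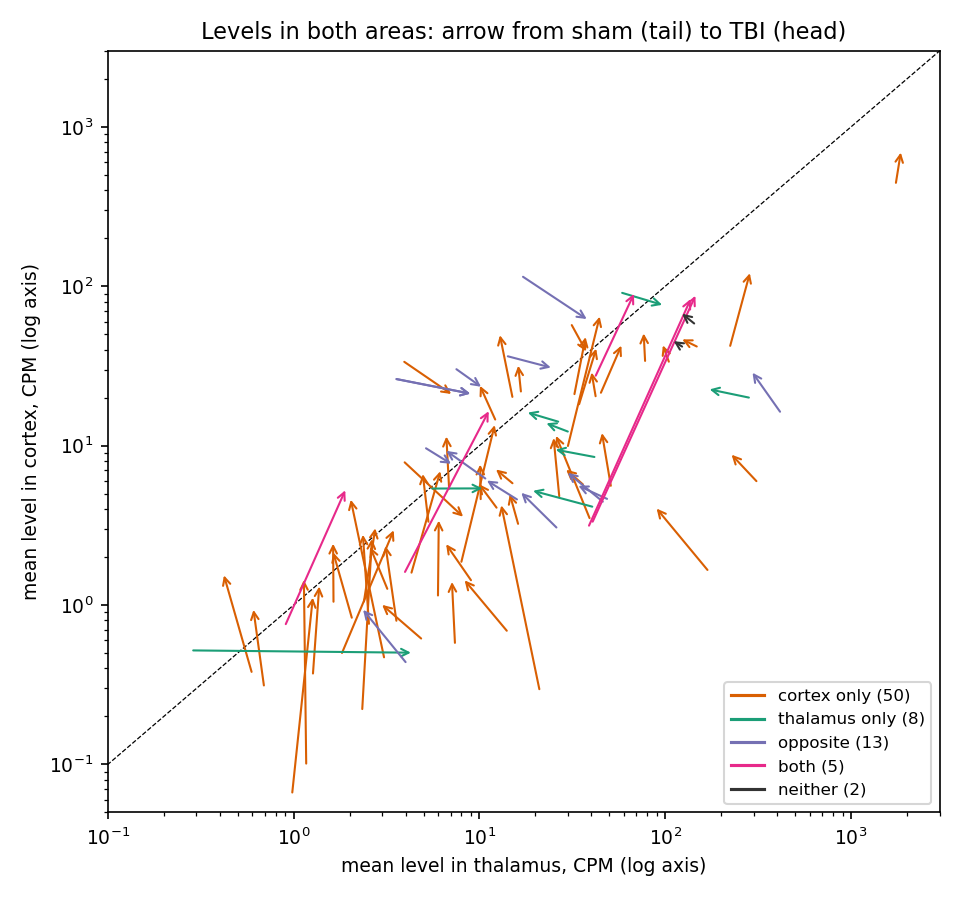
Mean level of the 78 genes in the thalamus (horizontal) and cortex (vertical) in CPM on log axes, with an arrow from the sham mean to the TBI mean and a dashed line at equal levels. Most arrows start below the line, where the thalamus is higher (63 of 78), and point up towards it.

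Among genes typical of the thalamus that could be tested in the cortex, the share that rose there was near that of all genes. No test was run on this set. To choose such genes without cortical libraries, the sham thalamus was set against the sham hippocampus of the same rats, which gave 535 genes at least 4-fold higher in the thalamus. The filter on low counts left 408 of the 535 to be tested in the cortex. Of these 408, 55 rose and 80 fell, with a median log2 fold change of -0.01. The share that rose was 13.5%, against 14.2% of all genes, and the share that fell was 19.6%, against 11.6%. Without hippocampal rats 4 and 5, in which the 10 most counted genes took 44.1 and 40.9% of the reads against 15.1 to 16.4% in the other sham libraries, 529 genes were chosen, of which 51 rose and 80 fell in the cortex. In the thalamus the median log2 fold change of the 535 genes was -0.24 (all genes -0.0016). The interaction was past the threshold in 20 of them (3.74%, against 0.44% of all genes), each with a more positive response in the cortex. The thalamic sham libraries enter the choice, the thalamic fold change and the interaction here, which fixes part of both directions. Brain area and instrument are confounded in this choice too.

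All 10 deposited hippocampal libraries were used, although the study's methods leave out a pair of sham hippocampal samples for low alignment, whose rat numbers are not given in the sources used here. In the hippocampus, which was not used to find the 78 genes, 71 of them had a positive log2 fold change, with a median of 0.28 (all genes -0.01, with 7961 of 16963 positive). None passed the threshold there by edgeR, as none of the 16963 genes tested did, and 27 of the 78 had an unadjusted p below 0.05, against 1432 of all genes. Without rats 4 and 5 the median was 0.23, with 68 values positive (8703 of 17372 over all genes), 12 with an unadjusted p below 0.05 (947 over all genes) and again 0 past the threshold by edgeR. The hippocampal libraries labelled rats 3 (sham) and 8 (TBI) may go against their labels. The 5 genes that parted these rats at least 8-fold in both cortex and thalamus were exchanged between them in the hippocampus, but only 2 of the 5 were not called after TBI, so the evidence apart from the treatment is slight. Without both libraries the median was 0.40 with 72 values positive (8003 of 16960 over all genes), and 14 of the 78 genes passed the threshold, against 263 of the 16960. As the pair was picked partly on genes called after TBI, leaving it out can itself raise such counts. This was not tested, and nothing is read from them.

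Some of the greatest apparent differences did not pass the test. In 11 genes the log2 fold change was above 1.5 in the cortex and below -1 in the thalamus, with differences of 2.93 to 6.90, yet the smallest edgeR adjusted p of the difference was 0.347, and none passed in either area alone. These genes, picked after their values were seen, were high together in 4 libraries. In all 11 the cortical libraries of rats 3 (sham), 6 and 9 (TBI) exceeded the other 7, and the thalamic library of rat 1 (sham) exceeded the other 9. Their summed level was 1575 CPM in cortex of rat 3, 8240 in rat 6 and 2665 in rat 9, against 7.605 to 95.5 CPM in the other cortical libraries. In the thalamus it was 3010 CPM in rat 1 and 14.7 to 81.1 CPM in the others. The most abundant of them alone reached 7620 CPM in the cortex of rat 6. High levels thus occurred in both treatments. Without rats 1, 3, 6 and 9, which leaves 3 rats a group, 28 genes passed the test of the difference, 24 of them among the 78. All 78 kept their direction in the remaining libraries, which had also served to choose them.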

How the data were processed

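Counts of poly(A) RNA reads per Ensembl gene were analysed in 20 libraries (perilesional cortex and thalamus of 5 sham-operated and 5 TBI rats) at a depth of 21992859 to 31799879 counts; the 10 hippocampal libraries served for side comparisons. The authors deposited unnormalised counts, 1 table per brain area with 26404 genes, after alignment with STAR to Rnor_5.0. Counting tool and use of strand are not given in the sources used here, so overlapping and near-identical genes are uncertain. Per the labels' processing notes, DESeq2 and R 3.1.0 were used. Columns were matched to rats by name, and 0 were left unused.

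The counts were analysed with R 4.3.3 and edgeR 4.0.16 (TMM scaling, filterByExpr with minimum count 10, robust quasi-likelihood test, Benjamini-Hochberg threshold 0.05), over 4 group means for the interaction and over 10 libraries for each area alone. log2 CPM used a prior count of 3, and scripts were tested on simulated data. Classes of response combined the 3 fits. Where nothing else is stated, p-values measure the spread between rats. Libraries of a group differed beyond sampling noise (chi-square per degree of freedom at least 15.1). Both areas came from the same rat, which pairs the libraries: the same-rat correlation of deviations from group means averaged 0.049 (-0.099 to 0.195), with 3 of 10 above 0.1. Alternatives were DESeq2 1.42.0, RLE, other filters, limma 3.58.1 voom with sample weights, all 30 libraries, the rat as a block, area contrasts from the 20-library fit and each rat left out. Added after the data were seen were each area's own spread, the block without rat 6, classes under RLE and with rats left out, the fit without rats 1, 3, 6 and 9, and hippocampal values without rats 4 and 5.

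The comparison and the lists were chosen with earlier results of these data known. Lists of pathway and cell type marker genes had been drawn up, but no identifier matched a gene name (0 of 26404), so they could not be applied and no sequence or position is printed. By the rule for that case, the 2 identifiers with the largest positive and the 2 with the largest negative difference, at a mean of at least 1 CPM in a group, are named.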

Additional observations from a re-analysis of the deposited data

Results flagged for a closer look

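The response to TBI differed between cortex and thalamus in 78 genes by the test of the difference itself. Among them the named genes differed by 4.71 (ENSRNOG00000018505), 4.10 (ENSRNOG00000029342), -4.05 (ENSRNOG00000016179) and -2.40 (ENSRNOG00000017712) on the log2 scale, with the first pair more positive in the cortex and the second in the thalamus.

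In the thalamus of TBI rat 10, ENSRNOG00000017712 was measured at 17.5 CPM, far from the other TBI rats, of which the next was at 8.23 CPM. The gap took 0.737 of the range of the group. This was the 1 set of values flagged among 20 sets examined in this way, and chance marks about 1 in 20.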

How the results depend on the processing

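All 78 genes kept the direction of their difference in every alternative in which they were tested (69 under a minimum of 1 CPM in both areas). The alternatives reuse the libraries that chose these genes, so a change of direction was unlikely from the start. The number past the threshold did not hold as well. It was 208 by DESeq2 and 208 by limma voom, 49 without a filter on low counts, 49 with the rat as a block (the replicate block) and 28 without rats 1, 3, 6 and 9, and 35 to 110 when each rat was left out; RLE gave 58, and 105 passed in 1 fit over 30 libraries. In the cortex alone 3577 to 4403 genes were called with each rat left out, 2722 by the contrast of the 20-library fit and 2215 without the 4 rats. In the thalamus alone the counts were 0 to 2421, 2805 and 1408, and 1950 by DESeq2. The cortex-only class held 22 to 60 genes with each rat left out, 113 by DESeq2, 32 under RLE, 34 by the 20-library contrasts and 9 without the 4 rats. Thalamus only held 0 to 46, 39 by DESeq2 and 15 by the 20-library contrasts. Opposite held 0 to 16, 31 by DESeq2, 20 by the 20-library contrasts and 7 without the 4 rats. Both held 0 to 16, 14 by DESeq2, 9 by the 20-library contrasts and 3 without the 4 rats. Neither held 0 to 8, 11 by DESeq2, and 0 under RLE, by the 20-library contrasts and without the 4 rats. Leaving out a rat removes replicates; the cause of the other shifts was not tested. With each rat left out, ENSRNOG00000018505 stayed at 4.46 to 5.03 and ENSRNOG00000029342 at 3.81 to 4.57 on the log2 scale, both past the threshold, and ENSRNOG00000016179 at -4.33 to -3.71 and ENSRNOG00000017712 at -2.85 to -1.96. Depth limits the genes with few reads, such as ENSRNOG00000018505 with 3 to 13 reads per library in sham cortex. The same holds for ENSRNOG00000029342 with 6 to 15 in sham cortex and ENSRNOG00000016179 with 3 to 11 in sham thalamus.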
